A study of Mus musculus with 8 samples.

Results

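Cells make cholesterol from acetyl-CoA by the mevalonate pathway, and fatty acids from the same precursor by a separate chain of enzymes. Both are governed by SREBP transcription factors, which SCAP carries out of the endoplasmic reticulum when sterols are scarce and INSIG proteins hold back when sterols are plentiful. The opposing arm is run by LXR nuclear receptors, which respond to oxidised sterols and induce the exporters Abca1 and Abcg1 and the lipoprotein receptor ligase Mylip. In blood-forming cells sterol synthesis is known to accompany growth and division.

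The 33 genes described here cover that system: enzymes of sterol and fatty acid synthesis, their SREBP regulators, and the efflux side. They were chosen by symbol, 1 probe set a gene, taking the probe set with the highest mean where there were several. A probe set annotated with the member's symbol alone was found for 32 of the 33 members, among 19938 genes in all; Acat2 is named only. By role they comprise 6 measured mevalonate enzymes, 11 enzymes of the squalene and sterol steps, 6 SREBP regulators and sterol transfer genes, 6 fatty acid enzymes, and 3 efflux and LXR target genes.

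Messenger RNA was measured on Affymetrix arrays in progenitors of dendritic cells, sorted out of mouse marrow, in 4 groups of 2 arrays. CDP stands for common dendritic cell progenitor, and the labels do not define pre-CD8 further; each was sorted into cells without (Id2-GFP-) and with (Id2-GFP+) green fluorescence from a reporter in Id2. The source labels give Id2-IRES-GFP reporter mice for all 4 groups, but the genotype labels state heterozygous Id2-IRES-GFP for Id2-GFP- CDP and heterozygous Zbtb46-GFP for the other 3 groups. All animals therefore carried a GFP allele, no wild-type group was measured, and every comparison with Id2-GFP- CDP also sets the 2 genotype labels against each other; age, strain, sort gates and pooling are not given. Values are log2 of the deposited intensity, so a difference of 1 is a doubling. Id2 lay between 5.14 and 7.18 on the Id2-GFP- arrays and between 9.26 and 10.99 on the Id2-GFP+ arrays, with no overlap. Zbtb46, the gene of the other reporter in the labels, did not overlap either, at 5.48 to 6.13 and 6.96 to 8.04. Which reporter gave the fluorescence was not tested. The arrays fell into a brighter set (mean intensity 461 to 478) and a dimmer set (402 to 414), with each group split evenly between them. Differences within each set are therefore given beside the results, as are calls with the array set as a block, which removes the shift common to a set. The sets were read from the intensities of these same arrays and not from a label. Adjusted p-values with the block may therefore be too small. A gene is called when its adjusted p in limma, fitted across all genes, is under 0.05.

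Promoter sequence from RefSeq (GRCm38.p6) was at hand for 25 of the 32 measured members, and the stretches of 150 bases before the start are shown for 5 whose levels the results turn on. Capitals mark the sterol regulatory element TCACNCCAC, a binding sequence of SREBP, and the CCAAT box, a binding sequence of NF-Y, which acts beside SREBP at many lipid genes. Each was searched on both strands, and their matches do not overlap in the stretches shown. The first is Hmgcs1 at chr13:119690201-119690350, plus strand. Cyp51 lies at chr5:4104698-4104847, minus strand, and Srebf2 at chr15:82147119-82147268, plus strand. Abca1 lies at chr4:53159896-53160045, minus strand, and Elovl6 at chr3:129532236-129532385, plus strand.
Hmgcs1: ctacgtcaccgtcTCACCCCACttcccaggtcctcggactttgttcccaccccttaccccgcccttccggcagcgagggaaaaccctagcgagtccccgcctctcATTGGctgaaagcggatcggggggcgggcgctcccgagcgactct
Cyp51: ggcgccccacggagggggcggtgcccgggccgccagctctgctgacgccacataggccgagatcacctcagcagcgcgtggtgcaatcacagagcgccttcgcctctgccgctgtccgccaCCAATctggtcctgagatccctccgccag
Srebf2: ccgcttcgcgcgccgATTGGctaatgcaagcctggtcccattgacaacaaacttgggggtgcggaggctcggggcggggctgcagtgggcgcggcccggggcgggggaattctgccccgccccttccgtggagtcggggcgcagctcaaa
Abca1: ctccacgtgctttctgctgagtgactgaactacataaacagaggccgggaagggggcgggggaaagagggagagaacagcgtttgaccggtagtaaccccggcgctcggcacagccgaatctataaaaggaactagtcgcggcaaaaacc
Elovl6: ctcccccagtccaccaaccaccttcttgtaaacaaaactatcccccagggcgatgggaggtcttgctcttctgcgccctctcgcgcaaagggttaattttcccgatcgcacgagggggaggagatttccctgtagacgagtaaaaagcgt

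The strict sterol element was present in 1 of the 25 members with a window, Hmgcs1, against 1.40% of 15614 tested genes over the same window, which spans 300 bases about the start. CCAAT was present in 21 of the 25, against 41.7% of those genes, and the E-box CACGTG, which SREBP1 can also bind, in 6 against 9.50%. CCAAT was found in all 5 mevalonate enzymes and all 9 enzymes of the squalene and sterol steps that had a window. Among the fatty acid enzymes it was found in 2 of 4, being absent from Acaca and Elovl6, and it was also absent from Scap and Abca1. It was present in the efflux group's Mylip and in Dhcr7, both lower in Id2-GFP+ pre-CD8 cells as given below. Fdps and Scd2 had no window. These are letter matches in a short window, and binding was not measured.

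More members were called between the pre-CD8 classes than in any other comparison. The same held over all genes, with 1249 called there and at most 975 elsewhere. The called sterol enzymes and efflux gene differed in opposite directions. Id2-GFP+ pre-CD8 cells held more transcript of the mevalonate enzyme Fdps (2.60-fold) and the sterol demethylase Cyp51 (1.91-fold) than Id2-GFP- pre-CD8 cells. They held less of the exporter Abca1 (3.61-fold) and the fatty acid elongase Elovl6 (2.15-fold). By limma 2 of 32 members rose, against 3.57% of all genes, and 2 fell, against 2.7% of all genes. Once the array set was a block 12 rose and 6 fell, where 11% of all genes rose and 13.2% fell, and the 4 genes called without it were among them. The groups did not overlap for 17 members higher in Id2-GFP+ pre-CD8, against 19% of all genes, and for 6 lower, against 21.5%. The median difference was 0.22 over the members and -0.01 over all genes. Leaving out 1 array moved the members' median to 0.36 (without replicate 1 of Id2-GFP- or of Id2-GFP+ pre-CD8), 0.16 (without replicate 2 of Id2-GFP-) or 0.15 (without replicate 2 of Id2-GFP+). In bulk RNA, fewer cells of a type and less RNA per cell cannot be told apart.

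**Figure D1:**
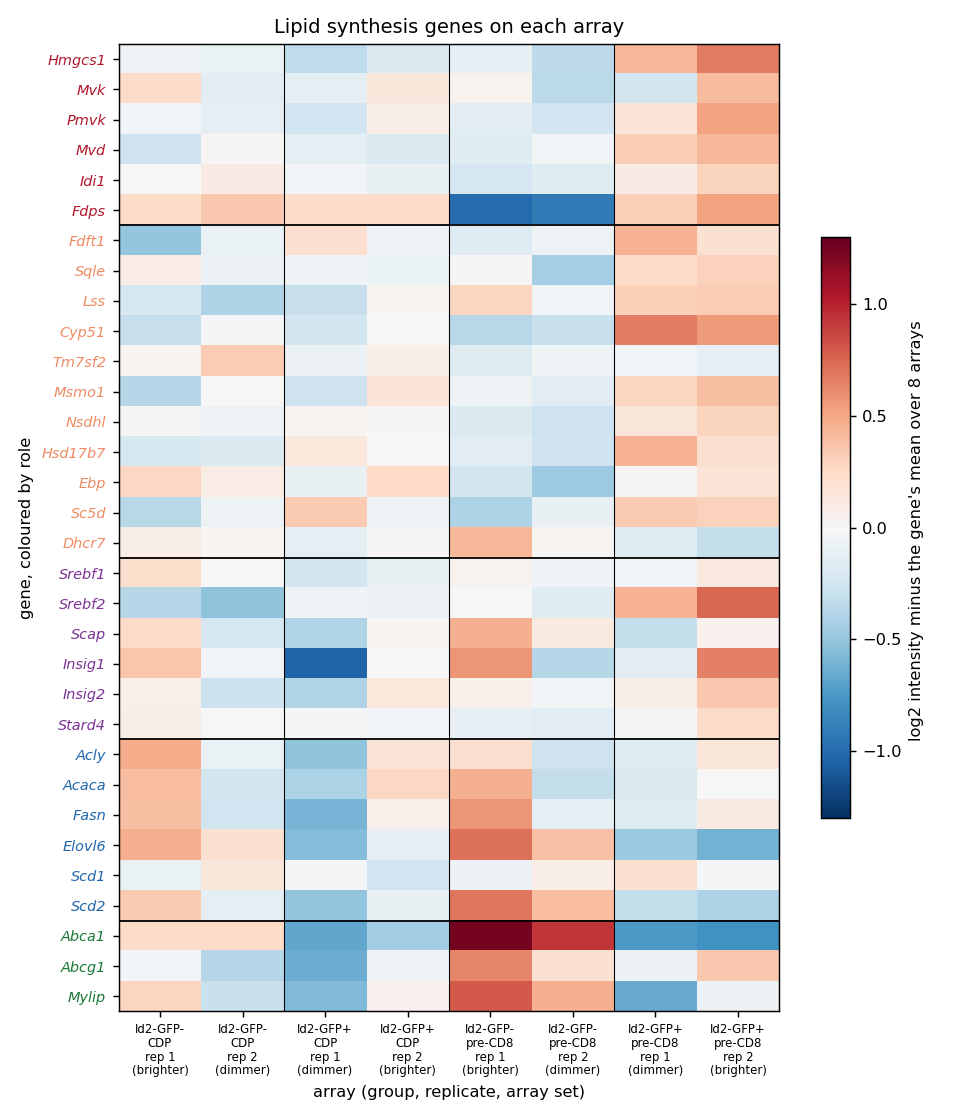
Log2 intensity of the 32 measured members (rows, coloured and divided by role) on the 8 arrays (columns), each as the difference from that gene's mean over the arrays. Red is above and blue below the mean; Fdps is lowest on both Id2-GFP- pre-CD8 arrays, where Abca1 is highest, and Hmgcs1, Cyp51 and Srebf2 are highest on both Id2-GFP+ pre-CD8 arrays.

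Fdps makes farnesyl pyrophosphate, the branch point from which sterols and the lipid anchors of proteins are built. Its log2 intensity was 9.91 and 10.02 in Id2-GFP- CDP, 9.91 and 9.91 in Id2-GFP+ CDP, 8.67 and 8.75 in Id2-GFP- pre-CD8, and 9.98 and 10.19 in Id2-GFP+ pre-CD8. Both Id2-GFP- pre-CD8 arrays thus stood below all 6 others, which lay close together. Id2-GFP+ pre-CD8 exceeded Id2-GFP- pre-CD8 by 1.38 ± 0.18 (SE; adjusted p of 0.00407 by limma), with 1.52 and 1.23 within the brighter and dimmer sets. This call was kept without each of the 8 arrays in turn, with an adjusted p of at most 0.0456.

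Hmgcs1, which makes the HMG-CoA that commits acetyl units to the pathway, had another pattern. It measured 8.02 and 7.99 in Id2-GFP- CDP, 7.75 and 7.88 in Id2-GFP+ CDP, 7.97 and 7.73 in Id2-GFP- pre-CD8, and 8.51 and 8.75 in Id2-GFP+ pre-CD8. Here the last group stood above all 6 other arrays, and the other 3 groups lay between 7.73 and 8.02. The pre-CD8 difference was 0.78 ± 0.20, or 0.78 in either set; it missed the threshold (adjusted p of 0.0621 by limma) but passed once the array set was a block (7.46e-04). Pmvk and Mvd, the later kinase and the decarboxylase of the pathway, differed by 0.54 and 0.47 and passed with the block, with adjusted p-values of 0.0102 and 0.0249, but not without it. The isomerase Idi1 at 0.38 ± 0.17 and the mevalonate kinase Mvk at 0.24 ± 0.28 passed in neither fit. All 6 measured mevalonate enzymes were higher in Id2-GFP+ pre-CD8 within both sets, as were 6792 of all 19938 genes. Their median difference was 0.50.

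Cyp51 removes a methyl group from lanosterol, the first sterol of the pathway. It measured 7.21 and 7.49 in Id2-GFP- CDP, 7.27 and 7.49 in Id2-GFP+ CDP, 7.14 and 7.21 in Id2-GFP- pre-CD8, and 8.17 and 8.05 in Id2-GFP+ pre-CD8. The Id2-GFP+ pre-CD8 arrays were again above all others, while the remaining 3 groups lay between 7.14 and 7.49. The pre-CD8 difference was 0.93 ± 0.20 (adjusted p of 0.0276 by limma; 0.91 and 0.95 within the sets). It was no longer called without Id2-GFP- CDP replicate 1 or any 1 of the 4 pre-CD8 arrays, with an adjusted p of up to 0.174.

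The other enzymes from squalene to cholesterol shared this direction with 1 exception. In Id2-GFP+ pre-CD8 10 of the 11 were higher within both sets, as were 6792 of all 19938 genes. The median difference of the 11 was 0.45. Besides Cyp51, those that rose with the array set as a block were Sc5d at 0.57, Hsd17b7 at 0.53, Sqle, which oxidises squalene, at 0.49, Nsdhl at 0.45, Ebp at 0.45 and Fdft1, which makes squalene, at 0.44. None of these 6 passed without the block, where their adjusted p-values ran from 0.165 to 0.421. Msmo1, Lss and Tm7sf2 differed by 0.44, 0.20 and 0.03 and passed in neither fit. The exception was Dhcr7, which reduces the last double bond on 1 branch to cholesterol. It lay at -0.47 ± 0.21, or -0.74 and -0.19 within the sets, and fell with the block (adjusted p of 0.0348).

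**Figure D2:**
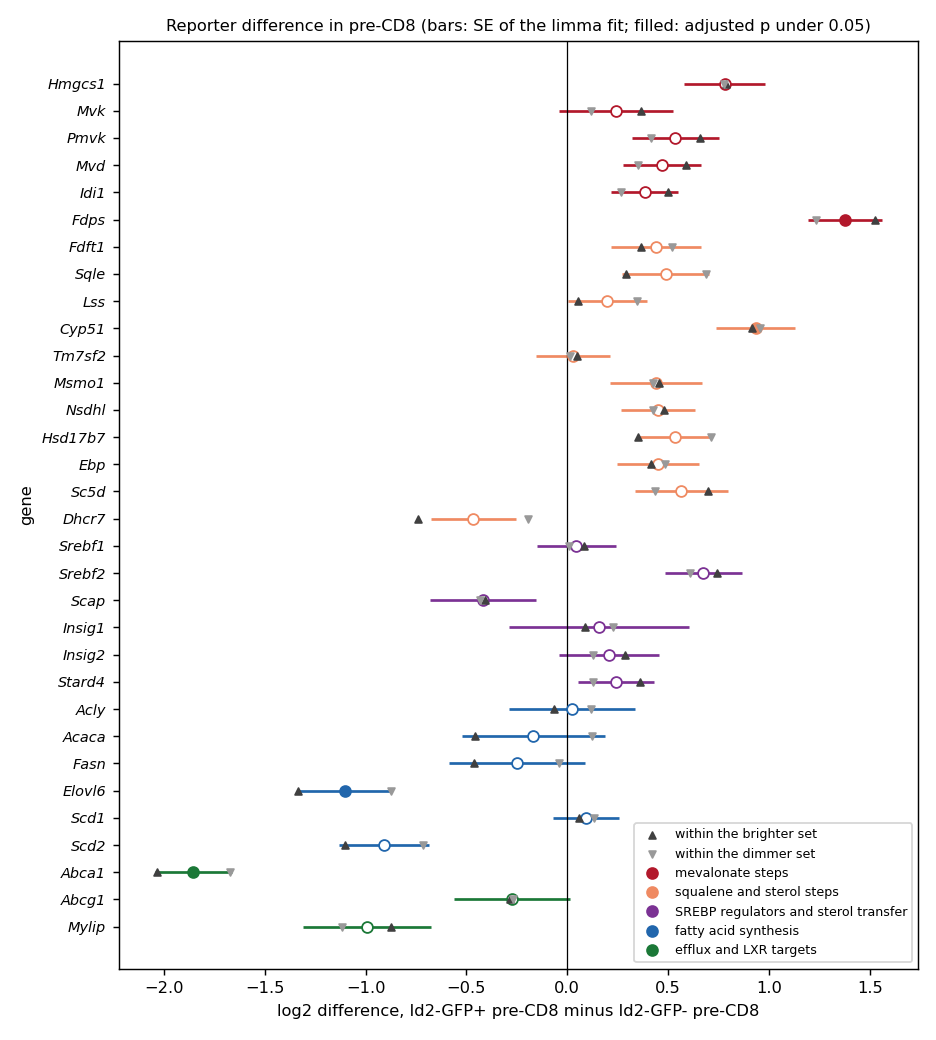
Log2 difference of each member between Id2-GFP+ and Id2-GFP- pre-CD8 (x axis), with circles and bars for the limma estimate and its SE and triangles for the difference within the brighter and the dimmer array set. Filled circles mark the 4 genes called without the block, from Fdps at 1.38 to Abca1 at -1.85; sterol enzymes lie mostly right of 0, and Elovl6, Scd2 and the efflux group left of it.

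Among the regulators, Srebf2, the SREBP chiefly of sterol genes, had a higher mean both with the reporter and at the later stage. It measured 9.62 and 9.47 in Id2-GFP- CDP, 9.94 and 9.92 in Id2-GFP+ CDP, 10.00 and 9.84 in Id2-GFP- pre-CD8, and 10.45 and 10.74 in Id2-GFP+ pre-CD8. The lowest and the highest group overlapped with none of the others, while the difference of Id2-GFP- pre-CD8 from Id2-GFP+ CDP was -0.01. From Id2-GFP- CDP to Id2-GFP+ pre-CD8, Srebf2 was higher by 1.05 ± 0.19 (adjusted p of 0.0365 by limma), a call lost without each of the 8 arrays in turn (0.0504 to 0.330). Between the pre-CD8 classes it differed by 0.67 ± 0.19, with an adjusted p of 0.0884 by limma and of 6.04e-04 once the array set was a block. By limma its reporter difference in CDP (adjusted p of 0.9998) was not called either. The same held for its stage differences in Id2-GFP- (0.718) and Id2-GFP+ cells (0.866).

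The remaining regulators moved less or varied more between sets. Srebf1, the SREBP chiefly of fatty acid genes, differed by 0.04 between the pre-CD8 classes, with a 95% interval of -0.41 to 0.50. Scap lay at -0.42 ± 0.26 and fell with the block (adjusted p of 0.00763). Insig1, itself an SREBP target, measured 8.27 and 7.87, 6.86 and 7.90, 8.48 and 7.53, and 7.76 and 8.56 over the groups in the order above, and in every group its brighter array was the higher. Its pre-CD8 difference was 0.16 ± 0.45, and the interval of -0.87 to 1.18 leaves its direction undetermined. Insig2 and the sterol carrier Stard4 differed by 0.21 and 0.24 and passed in neither fit.

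Fatty acid enzymes did not share the direction of the sterol enzymes. Elovl6, which extends palmitate, measured 9.86 and 9.59 in Id2-GFP- CDP, 8.83 and 9.29 in Id2-GFP+ CDP, 10.11 and 9.78 in Id2-GFP- pre-CD8, and 8.90 and 8.77 in Id2-GFP+ pre-CD8. All 4 Id2-GFP+ arrays were below all 4 Id2-GFP- arrays. The pre-CD8 difference was -1.10 ± 0.24 (adjusted p of 0.0300 by limma; -1.33 and -0.87 within the sets). Leaving out any 1 of the Id2-GFP- CDP or pre-CD8 arrays ended that call, with an adjusted p of up to 0.210.

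Scd2, a desaturase that makes monounsaturated fatty acids, lay close behind. Its values were 11.47 and 11.02 in Id2-GFP- CDP, 10.62 and 11.04 in Id2-GFP+ CDP, 11.84 and 11.54 in Id2-GFP- pre-CD8, and 10.83 and 10.73 in Id2-GFP+ pre-CD8. The pre-CD8 groups did not overlap and the CDP groups did. The pre-CD8 difference was -0.91 ± 0.22, with adjusted p-values of 0.0537 by limma and 2.23e-04 under the block. Its close paralog Scd1 measured at most 4.48 on each of the 8 arrays and differed by 0.09 between the pre-CD8 classes (95% interval -0.29 to 0.47). The enzymes that make and join the 2-carbon units, Acly, Acaca and Fasn, differed by 0.02, -0.17 and -0.25 and passed in neither fit; in each group the brighter array was the higher for all 3.

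On the efflux side Abca1, which exports cholesterol to apolipoprotein A1, had the largest difference of any member between the pre-CD8 classes. It measured 7.27 and 7.28 in Id2-GFP- CDP, 6.35 and 6.58 in Id2-GFP+ CDP, 8.28 and 7.96 in Id2-GFP- pre-CD8, and 6.28 and 6.24 in Id2-GFP+ pre-CD8. No 2 groups overlapped. Abca1 fell by 1.85 ± 0.19 from Id2-GFP- to Id2-GFP+ pre-CD8 (adjusted p of 0.00152 by limma; -2.04 and -1.67 within the sets). The call was kept without each of the 8 arrays in turn, at an adjusted p of at most 0.0192.

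Mylip, the ligase that marks lipoprotein receptors for breakdown, measured 10.00 and 9.43, 9.14 and 9.77, 10.52 and 10.18, and 9.07 and 9.64 in the same order of groups. Only Id2-GFP- pre-CD8 stood clear of the other arrays. Mylip lay at -0.99 ± 0.32 between the pre-CD8 classes (adjusted p of 0.132 by limma, 5.35e-05 with the block). Abcg1, the other exporter, differed by -0.28 ± 0.29 and passed in neither fit. All 3 were lower in Id2-GFP+ pre-CD8 within both sets, as were 7500 of all 19938 genes.

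**Figure D3:**
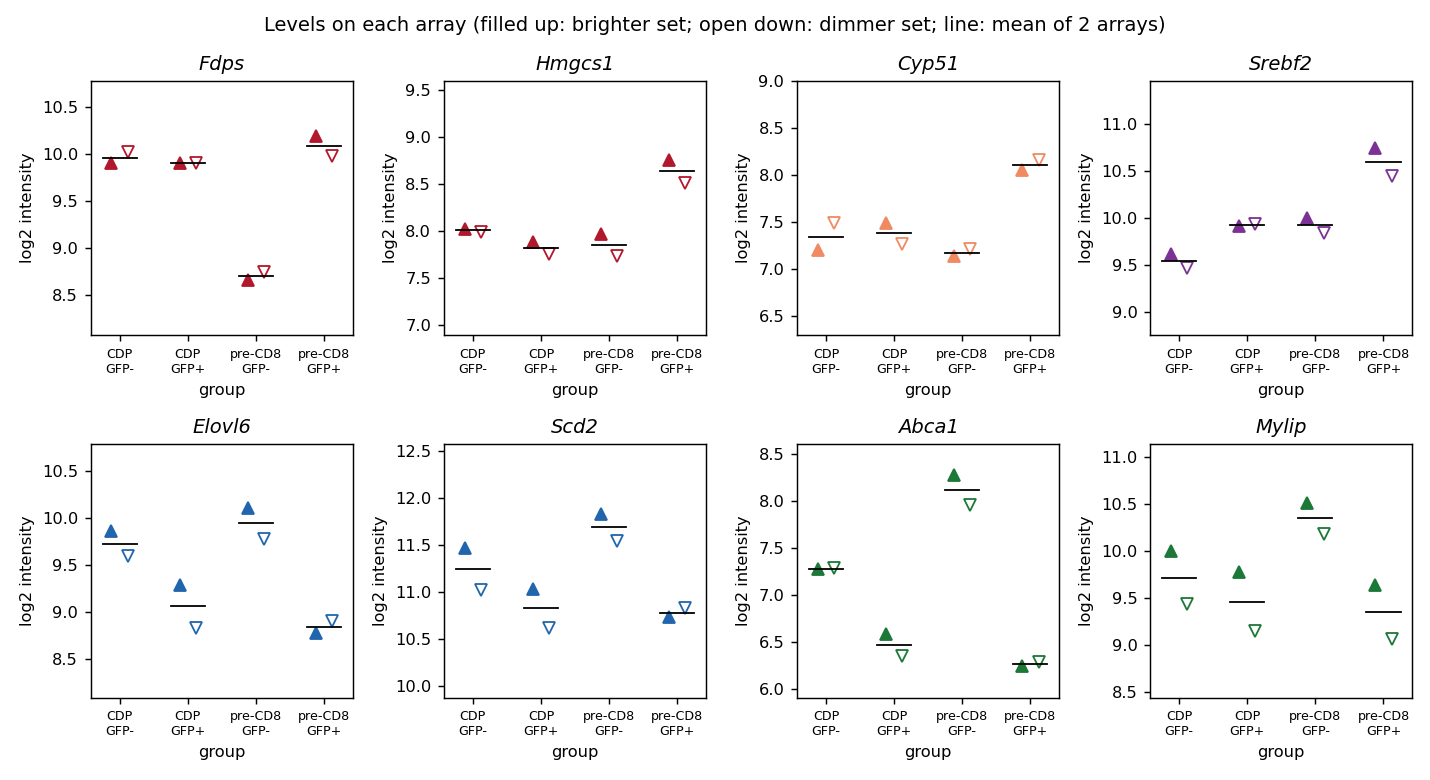
Log2 intensity of 8 members in the 4 groups, with filled upward triangles for the brighter and open downward triangles for the dimmer array of each group, and a line at the mean of 2 arrays. All panels span the same height in log2 units; Fdps is set apart in Id2-GFP- pre-CD8, Hmgcs1 and Cyp51 in Id2-GFP+ pre-CD8, and all 4 Id2-GFP+ arrays are below all Id2-GFP- arrays for Elovl6 and Abca1.

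Markers of other states differed between the same pre-CD8 groups. Of 15 genes of the G2 and M phases 13 rose in Id2-GFP+ pre-CD8 (15 with the array set as a block), their mean log2 level being 8.86 to 9.27 in Id2-GFP- pre-CD8 and 10.36 to 10.82 in Id2-GFP+ pre-CD8. Of 12 neutrophil and granule genes 8 rose and 1 fell, with mean levels of 9.44 to 9.67 and 11.01 to 11.29. Of 8 monocyte and macrophage markers 4 rose, with levels of 7.22 to 7.52 and 8.72 to 8.95. Of 5 B lineage and 5 pDC markers 2 and 1 fell, the levels being 7.04 to 7.30 against 6.12 to 6.13 and 9.63 to 10.30 against 9.13 to 9.13. None of 3 erythroid markers passed (5.21 to 5.44 against 5.28 to 5.42). The 9 dendritic cell progenitor markers lay at 9.28 to 9.33 and 10.04 to 10.32, with 5 rising and 3 falling. The part of these differences in the lipid genes was not tested.

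At the CDP stage the reporter classes were closer. From Id2-GFP- to Id2-GFP+ CDP none of the 32 members passed by limma, where 0.597% of all genes did. An unadjusted p under 0.05 was reached by 2 members, Abca1 and Elovl6, and by 1098 of all 19938 genes. Abca1 lay at -0.81 ± 0.19 (adjusted p of 0.217; -0.69 and -0.93 within the sets) and Elovl6 at -0.67 ± 0.24 (0.673; -0.57 and -0.76). Under the block on array set Abca1, Elovl6 and Insig1 fell, where 4.17% of all genes did, and Srebf2 rose by 0.38, where 3.69% did. Fdps differed by -0.06 (95% interval -0.48 to 0.36) and Cyp51 by 0.03 (-0.42 to 0.48). All 6 fatty acid enzymes were lower in Id2-GFP+ CDP within both sets, as were 6450 of all 19938 genes. Their median was -0.35, though only Elovl6 of the 6 passed in either fit. The median over the 15 G2 and M phase genes was 0.38 here, with 8 rising with the block, and 8 of 12 neutrophil and granule genes and 2 of 8 monocyte and macrophage markers rose. Of 9 dendritic cell progenitor markers Batf3 rose, and with the block Zbtb46 also rose while Flt3 and Csf1r fell. The part of these differences in the lipid genes was not tested.

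Whether the reporter difference changed with stage was tested by an interaction. None of the members passed by limma (0.145% of all genes did). An unadjusted p under 0.05 was reached by 4 members and by 1227 of all 19938 genes. With the array set as a block 7 passed, where 7.48% of all genes did. Fdps had the largest value, 1.43 ± 0.26, followed in size by Abca1 at -1.04 ± 0.27, Hmgcs1 at 0.97 ± 0.28 and Cyp51 at 0.90 ± 0.28. Their adjusted p-values were 0.109, 0.289, 0.375 and 0.420 without the block, and 4.29e-04, 0.00906, 0.00657 and 0.0223 with it. Insig1, Ebp and Mylip were the others that passed with it, at 0.85, 0.55 and -0.73. Elovl6 and Scd2 had interactions of -0.44 and -0.49 and passed in neither fit.

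**Figure D4:**
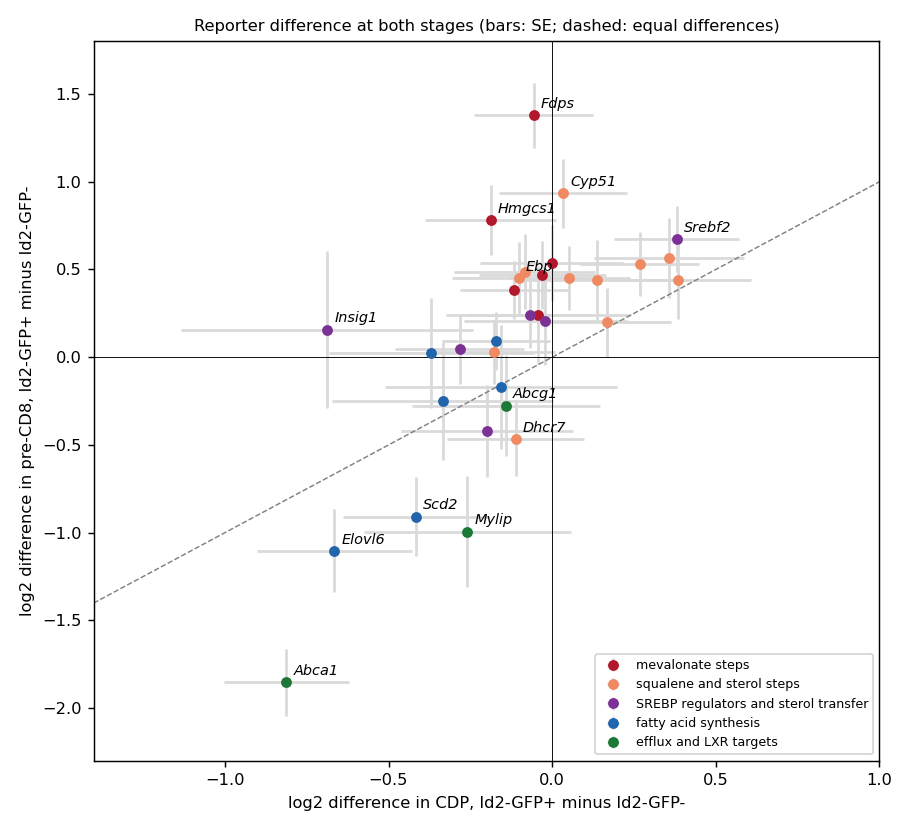
Reporter difference (Id2-GFP+ minus Id2-GFP-) of the 32 members in CDP (x axis) and pre-CD8 (y axis) in log2 units, coloured by role, with SE bars and a dashed line of equal differences. Fdps, Cyp51 and Hmgcs1 lie near 0 in CDP and between 0.78 and 1.38 in pre-CD8, and Abca1, Elovl6, Scd2 and Mylip are below 0 at both stages.

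Among Id2-GFP- cells 1 member was called from CDP to pre-CD8. Fdps fell by 1.26 ± 0.18 (adjusted p of 0.0154 by limma; -1.24 and -1.27 within the sets), a call lost without any 1 of the 4 arrays compared (up to 0.173). Over all genes 0.592% fell; 0 members rose, where 1.03% did. Under the block Fdps and Ebp fell and Abca1, Abcg1, Mylip, Scd2 and Srebf2 rose, where 6.65% and 5.82% of all genes did. All 3 efflux genes were thus higher in pre-CD8 with the block, by 0.84, 0.62 and 0.63. Of the 15 G2 and M phase genes 5 fell in the same comparison, and all 15 with the block. Of 8 monocyte and macrophage markers 4 fell (6 with the block; median -1.31), and of 9 dendritic cell progenitor markers 3 fell, namely Csf1r, Cx3cr1 and Clec9a. The B lineage marker Ebf1 rose. Among 12 neutrophil and granule genes Prtn3 fell, and with the block 7 rose and 4 fell. The part of these differences in the lipid genes was not tested. The 2 groups carry different genotype labels, which cannot be told apart from the stage.

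Among Id2-GFP+ cells no gene of any kind passed by limma from CDP to pre-CD8 (0% of all genes, with 643 at an unadjusted p under 0.05, 5 of them members). With the array set as a block Hmgcs1, Cyp51, Srebf2 and Insig1 rose, by 0.82 ± 0.12, 0.73 ± 0.14, 0.67 ± 0.10 and 0.78 ± 0.16 (SE of that fit). They were 4 of 32 members, where 0.973% of all genes rose, and 0 members fell, where 1.1% did. Their differences were 0.87 and 0.76, 0.56 and 0.90, 0.83 and 0.51, and 0.66 and 0.90 within the brighter and dimmer sets. Over the G2 and M phase genes the median was -0.02 in this comparison, and none was called in either fit. It was -0.70 over the neutrophil and granule genes, of which 3 fell with the block, and with it 3 monocyte and macrophage markers fell while Ccr2 rose. Of the 9 dendritic cell progenitor markers Kit and Batf3 rose with the block, and Csf1r, Cd34 and Cx3cr1 fell. The part of these differences in the lipid genes was not tested. Fdps differed by 0.18 (95% interval -0.24 to 0.60), and Abca1 by -0.20.

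Both diagonal comparisons share arrays with those above and are given for completeness. From Id2-GFP- CDP to Id2-GFP+ pre-CD8, Srebf2 rose (1.39% of all genes did) and Abca1 fell by 1.01 ± 0.19 (0.401% did). The Abca1 call had an adjusted p of 0.0421 by limma and ended when any 1 of the Id2-GFP- CDP or pre-CD8 arrays was left out (up to 0.309). With the block 9 members rose and 4 fell, where 6.97% and 8.85% of all genes did, Lss among the rising at 0.63. From Id2-GFP+ CDP to Id2-GFP- pre-CD8, Abca1 rose by 1.65 ± 0.19 (adjusted p of 0.00289 by limma) and Fdps fell by 1.20 ± 0.18 (0.00858), where 2.08% and 2.81% of all genes did. The Fdps call was lost without either Id2-GFP- pre-CD8 array (up to 0.0642). With the block 8 rose, where 12.1% of all genes did, all of them regulators, fatty acid enzymes or efflux genes, and 2 fell, where 9.88% did.

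A wider list of 54 genes of lipid synthesis, uptake, trafficking and sterol sensing had 45 measured members. Between the pre-CD8 classes 2 rose and 1 fell by limma, where 3.57% and 2.7% of all genes did. With the block on array set 10 rose and 9 fell, where 11% and 13.2% did. Cyp27a1, the mitochondrial enzyme that turns cholesterol into 27-hydroxycholesterol, changed most. It measured 7.98 and 8.51 in Id2-GFP- CDP, 8.49 and 8.67 in Id2-GFP+ CDP, 6.14 and 6.47 in Id2-GFP- pre-CD8, and 9.02 and 9.56 in Id2-GFP+ pre-CD8. Like Fdps it was lowest on both Id2-GFP- pre-CD8 arrays. It rose by 2.99 ± 0.28 between the pre-CD8 classes (adjusted p of 9.92e-04 by limma), a call kept without each array in turn. Cyp27a1 also fell by 2.28 from Id2-GFP+ CDP to Id2-GFP- pre-CD8 (0.00345) and by 1.94 between the Id2-GFP- groups (0.0140), the latter call being lost when replicate 2 of Id2-GFP- CDP or replicate 1 of Id2-GFP- pre-CD8 was left out (up to 0.127).

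Of the other wider genes, Hacd2, a dehydratase of the fatty acid elongation cycle, rose by 0.96 ± 0.22 (adjusted p of 0.0391 by limma). Fads2, which starts the making of polyunsaturated fatty acids, fell by 0.86 ± 0.19 (0.0324). Both calls ended when any 1 of the Id2-GFP- CDP or pre-CD8 arrays was left out (up to 0.270 and 0.245). Fads2 measured 10.39 and 10.34, 9.68 and 9.82, 10.47 and 10.23, and 9.39 and 9.58 over the 4 groups in order, so that, as for Elovl6 and Abca1, each Id2-GFP+ array was below each Id2-GFP- array. Nr1h3, which encodes the receptor LXR alpha, fell by 0.72 ± 0.15 from Id2-GFP+ CDP to Id2-GFP- pre-CD8 (0.0340), a call lost without each of the 8 arrays in turn (up to 0.191). Between the pre-CD8 classes it differed by 0.56 ± 0.15 and passed with the block (0.00730), higher in Id2-GFP+ cells, in which its targets Abca1 and Mylip were lower. The mean level of Nr1h3 was 5.51 ± 0.02 (SD, n = 2) in Id2-GFP- and 6.06 ± 0.0032 in Id2-GFP+ pre-CD8. Both lay below the median of all probe sets, which was 6.12 to 6.27 over the 8 arrays. Nr1h3 was thus a dim gene, and whether it was above background is unknown.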

How the data were processed

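RNA of 8 sorted samples, 2 in each of 4 groups named by the sample titles, was hybridised to 1-colour Affymetrix arrays. The deposited table holds intensity on a linear scale for 28853 probe sets; the authors made it with RMA in the Affymetrix Expression Console, per the submitters' processing notes, and the version is not given in the sources used here. RMA compresses low values, so differences of dim genes are understated. The design had assumed log2 values; the intensity was therefore converted to log2 first, and was not normalized again. Gene names come from the platform annotation; 3 members (Acaca, Fdft1, Idi1) had 2 probe sets, which shared their direction in both reporter comparisons.

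Differences were tested with limma 3.58.1 in R 4.3.3 over all 19938 genes: 4 group means, 8 arrays in 1 fit, an intensity trend, no filter, two-sided, Benjamini-Hochberg adjustment over all genes, and 4 residual degrees of freedom. The script was tested on simulated data. Figures were drawn with Python 3.11.15. Errors are the SE of the fit unless stated. The number of arrays limits the precision, and since the labels do not say that replicates are separate animals, a p-value reflects the spread between these arrays alone, and that spread may be technical. The array sets were defined from the mean intensity of these same arrays, so p-values with the block may be too small. Members, lists and alternatives were chosen with earlier results of these data known. Values on every array were given for members called in any comparison (Fdps, Cyp51, Srebf2, Elovl6, Abca1); Hmgcs1, Insig1, Scd2 and Mylip were added after their values were seen, and wider-list genes were named where called in a pair.

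Deviations from group means of same-numbered replicates correlated at 0.71 and 0.69 between groups of one reporter class and at -0.69 to -0.63 between reporter classes. The array set follows the crossed numbers between reporter classes. These correlations cannot tell whether arrays of equal number share an animal or a sort, since the shift between array sets enters them. The replicate number was therefore not used as a pairing in the main fit.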

Additional observations from a re-analysis of the deposited data

Results flagged for a closer look

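For 3 members both Id2-GFP+ arrays lay below both Id2-GFP- arrays in CDP and above them in pre-CD8, a pattern that 1.09% of all 19938 genes showed. They were Hmgcs1, with an interaction of 0.97 ± 0.28, Idi1, with 0.50 ± 0.24, and Stard4, with 0.31 ± 0.27. By limma the adjusted p of the interaction was 0.375 for Hmgcs1, 0.898 for Idi1 and 1 for Stard4, and under the block on array set it was 0.00657, 0.166 and 0.426. Among these 3 the interaction thus passed for Hmgcs1 alone, and only with the block. It cannot tell a change with stage from the different genotype label of Id2-GFP- CDP. The CDP differences were small, at -0.19, -0.12 and -0.07.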

How the results depend on the processing

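With the array set as a block the members called numbered 4 (reporter in CDP), 18 (reporter in pre-CD8), 7 (Id2-GFP- pre-CD8 against Id2-GFP- CDP), 4 (Id2-GFP+ pre-CD8 against Id2-GFP+ CDP), 13 and 10 (the diagonal comparisons, Id2-GFP- CDP first) and 7 (interaction), against 0, 4, 1, 0, 2, 2 and 0 without it. Quantile normalization gave 1, 10, 3, 0, 3, 7 and 0, the 10 being 5 rising and 5 falling. With the replicate block the counts were 0, 2, 0, 0, 0, 2 and 0. Fitting only the groups compared gave 0 for the Id2-GFP- stage comparison and 1 for each diagonal one. Leaving out 1 array gave 2 to 5 members for the reporter in pre-CD8, 0 to 1 for the Id2-GFP- stage comparison, 0 to 1 and 1 to 2 for the diagonal ones, and 0 to 0 for the others. The 2 for the reporter in pre-CD8 came without Id2-GFP- CDP replicate 1 or any 1 of the pre-CD8 arrays, the 0 for the Id2-GFP- stage without any 1 of its arrays, and the 1 for the second diagonal without either Id2-GFP- pre-CD8 array; each array left out lowered the count of the first. The cause of these changes was not tested. No trend, a filter on dim genes and the mean over probe sets kept every count within 1.5 times.

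Over 47 single-gene results and 698 alternatives, 601 kept their side of the threshold, 67 calls were lost and 30 gained, and no called difference changed sign. Between the pre-CD8 classes the median over alternatives was 0.15 to 0.36 for all measured members, 0.39 to 0.64 for mevalonate enzymes, 0.38 to 0.49 for squalene and sterol enzymes and -1.28 to -0.71 for efflux genes, but -0.58 to 0.06 for fatty acid enzymes. No detection call was used, so whether Scd1, or another dim gene, is above background is unknown.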
